A study of Mus musculus with 2 samples.

Results

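Son encodes a large RNA-binding protein of nuclear speckles, the bodies in the nucleus where splicing factors gather next to active genes. The genes described here are Son and 9 others whose proteins build or fill speckles, namely Srrm1, Srrm2, Sart1, Acin1, Pnn, Rnps1, Thrap3, Bclaf1 and Luc7l3. They were chosen by symbol, as 10 of the 32285 gene rows that the count tables list, and all 10 were found and measured. Their levels, their detection and their co-variation were followed over single cells, cell cycle states and classes of droplets.

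The cells were E14 mouse embryonic stem cells of 129/Ola background, kept in serum with leukaemia inhibitory factor. One culture received a control small interfering RNA (siRNA, a short duplex that directs the degradation of a matching RNA) and is called control. The other received siRNA against Son and is called sonKD. Both were transfected with Lipofectamine2000, detached 24 hours later, frozen, thawed, sorted for live cells and barcoded for droplet RNA sequencing of transcript 3′ ends. Each group held 1 library, so there is no replicate check, no test was made, and an effect of the siRNA and a difference between the libraries cannot be told apart.

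Speckles form around the scaffold proteins Son and Srrm2, both rich in serine and arginine. Srrm1, Rnps1, Acin1 and Pnn belong to the machinery that deposits and reads exon junction complexes on spliced RNA. Thrap3 and Bclaf1 are a related pair of arginine-serine-rich proteins of RNA processing. Sart1 is a protein of the tri-snRNP, the particle that completes the spliceosome, and Luc7l3 is a companion of the U1 snRNP, which recognises 5′ splice sites. In embryonic stem cells SON is known to support the splicing of transcripts needed for pluripotency.

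The control library held 71046373 UMIs and the sonKD library 60352438 (unique molecular identifiers, tags that let copies of a captured molecule be counted once). Cells were barcodes with at least 2500 UMIs, at least 1000 genes and at most 10% UMIs of mitochondrial (mt-) genes, which left 4978 control and 2731 sonKD cells. The cells of sonKD were deeper, with a median of 11612 UMIs against 7737.5. All 10 stem cell markers listed, Dppa5a highest among them, were above 10 CPM (UMI counts scaled to an equal total) in both libraries. None of the markers of feeder fibroblasts, primitive endoderm, trophectoderm, mesoderm or neuroectoderm reached that level in either library. The summed level of those 5 lists ranged from 4.33 to 11.4 CPM in control and from 3.68 to 9.55 CPM in sonKD.

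The regulatory start of the siRNA target is shown first, because Son shares its neighbourhood with genes that serve as local references. By the GENCODE annotation, Son (ENSMUSG00000022961) lies on the plus strand of chromosome 16 of GRCm38, from 91647506 to 91679221. Gart, which encodes an enzyme of purine synthesis, starts 554 bases away by the same annotation, on the other strand, and runs in the opposite direction. Donson, a replication gene, lies on the minus strand and overlaps the far end of Son by 2414 bases. The RefSeq start windows below (GRCm38.p6, 250 bases before to 50 after each start, each 5′ to 3′ on its own strand) cover chr16:91647574-91647873 for Son and chr16:91646923-91647222 for Gart. RefSeq starts differ from the GENCODE starts, and the Son window lies inside the gene as GENCODE places it. Capitals mark CCAAT or its reverse complement ATTGG, which occur 3 times in the Son window and 1 time in the Gart window. At least 1 such match was found in 37.4% of all 32851 windows, and the share with 3 was not counted. The Son window was 65.3% G and C bases, against a median of 52.7% over all windows. Of the other members with a window, Pnn had 3 matches, Srrm1 had 1 and the rest had 0.
Son: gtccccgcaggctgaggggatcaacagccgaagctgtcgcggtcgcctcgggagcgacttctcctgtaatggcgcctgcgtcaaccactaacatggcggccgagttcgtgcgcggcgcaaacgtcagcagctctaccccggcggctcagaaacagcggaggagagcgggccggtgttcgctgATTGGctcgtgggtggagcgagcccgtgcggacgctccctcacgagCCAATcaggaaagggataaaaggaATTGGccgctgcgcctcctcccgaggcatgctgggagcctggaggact
Gart: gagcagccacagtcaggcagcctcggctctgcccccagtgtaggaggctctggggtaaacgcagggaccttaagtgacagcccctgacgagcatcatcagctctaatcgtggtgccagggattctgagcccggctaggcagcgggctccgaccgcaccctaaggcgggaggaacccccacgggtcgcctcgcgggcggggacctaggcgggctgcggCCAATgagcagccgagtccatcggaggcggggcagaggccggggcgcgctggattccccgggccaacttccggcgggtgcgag

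Son was the member with the lowest ratio between the libraries. Summed over cells, control gave 6894 Son UMIs, a level of 169 CPM (95% interval 165 to 173). The sonKD cells gave 3386 Son UMIs, a level of 106 CPM (102 to 109). The log2 ratio of sonKD over control was -0.67 (-0.73 to -0.61), so that sonKD cells held 62.7% of the control level (60.2 to 65.4). All intervals of counts and ratios here cover counting error only. A lower ratio than that of Son was found for 0.645% of the 8063 genes that averaged 10 CPM or more. The divergent neighbour Gart was at 183 and 157 CPM, a log2 ratio of -0.21 (-0.27 to -0.16). The overlapping neighbour Donson was at 14.6 and 16.1 CPM, with an interval of the ratio from -0.04 to 0.31. Of all genes, whose median log2 ratio was -0.12, 26.9% had a lower ratio than Gart and 90.1% a lower one than Donson. Whether the counting used strand is not given in the sources used here, so reads from the overlap of Son and Donson cannot be assigned with certainty.

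The partner scaffold gene did not share this difference. Srrm2 (chromosome 17, 23790532 to 23824741) had 749 CPM (740 to 757) in control cells, and sonKD cells had 776 CPM (766 to 786). Its log2 ratio of 0.05 (0.03 to 0.08) put sonKD above control beyond the counting error, while the median of all genes was -0.12. The sign was not the same at all depths, as the Srrm2 ratio was 0.23 (0.08 to 0.37) in cells of 2500 to under 5000 UMIs, -0.09 (-0.14 to -0.03) in those of 5000 to under 10000, and 0.02 (-0.01 to 0.05) in those of 10000 or more. Among all genes, 81.8% had a lower ratio than Srrm2.

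The 4 genes of the exon junction group stood at near-equal CPM in the libraries, while the median log2 ratio of all genes was -0.12. Srrm1, a splicing coactivator, went from 359 CPM in control up to 389 CPM in sonKD, the highest log2 ratio of any member at 0.11 (0.08 to 0.15). Rnps1, which helps splicing and marks spliced RNA, was at 176 and 180 CPM, and Acin1, its partner in the ASAP complex, was at 231 and 232 CPM. The intervals of both ratios included 0, from -0.02 to 0.08 for Rnps1 and from -0.03 to 0.05 for Acin1. Pnn, which takes the place of Acin1 in the related PSAP complex, was at 275 and 265 CPM with a log2 ratio of -0.06 (-0.10 to -0.02). The sign of the Pnn ratio depended on the scaling, as TMM factors (trimmed mean of M values) gave 0.034. They also moved the ratios of Srrm1 (0.20), Rnps1 (0.12) and Acin1 (0.10) above their intervals. Of all genes, 88.3% had a lower ratio than Srrm1, 79.9% than Rnps1, 76.4% than Acin1 and 64.2% than Pnn.

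The paired genes Thrap3 and Bclaf1 were both lower in sonKD. Thrap3 had 385 CPM (379 to 391) in control cells against 318 CPM (311 to 324) in sonKD cells, a log2 ratio of -0.28 (-0.31 to -0.24). Bclaf1, whose protein binds Thrap3, was at 320 and 277 CPM, a log2 ratio of -0.21 (-0.25 to -0.17). A lower ratio was found for 14.9% of all genes beside Thrap3 and 28.3% beside Bclaf1, so both lay inside the central 90% of ratios (-0.40 to 0.25).

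Of the snRNP genes, Sart1 was the other member near the low end of all ratios. Sart1 (chromosome 19, 5377523 to 5388703) had 70.7 CPM (68.2 to 73.3) in control cells and 51.1 CPM (48.7 to 53.6) in sonKD cells. Its log2 ratio of -0.47 (-0.56 to -0.38) corresponds to 72.3% of control, and 2.91% of genes had a lower ratio. Luc7l3 was at 210 and 189 CPM with a log2 ratio of -0.15 (-0.20 to -0.10), near the median of all genes.

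Counted by a fixed fold of 1.3, 2 of 10 members were lower in sonKD, namely Son and Sart1, and 0 were higher. Over all genes tested, 6.02% were lower and 2.64% higher by that fold. At a fold of 1.5, Son alone was lower, against 1.23% of all genes. Since the siRNA was aimed at Son, its own place in this count is a check of the labels. Sart1 depended on the scaling, with a log2 ratio of -0.38 under TMM factors, just inside the fold, and -0.35 when the median ratio was set to 0. The same scalings changed the background, and under TMM factors 2.90% of genes were lower and 4.06% higher. For 5 of 10 members the ratio was below the median of all genes, and the median of the members was -0.10 against -0.12 for all genes.

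**Figure D1:**
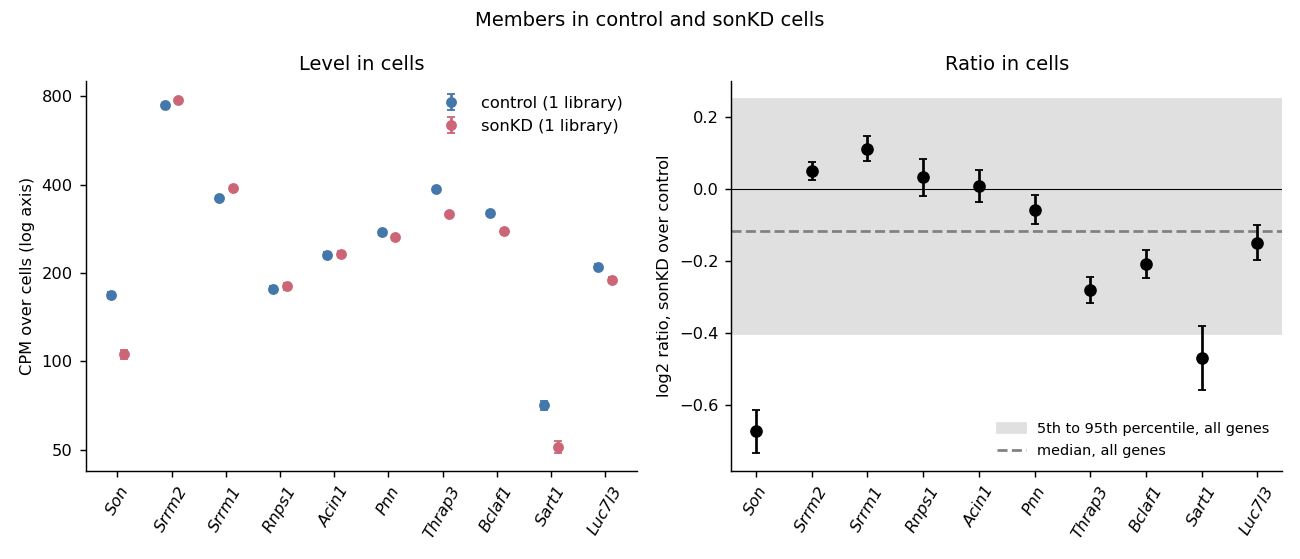
Left, CPM of each member summed over the cells of the control and sonKD libraries on a log axis; right, log2 ratio of sonKD over control, with the 5th to 95th percentile of all 8063 genes in grey and their median as a dashed line. Bars are 95% counting intervals of 1 library per group; Son at -0.67 and Sart1 at -0.47 lie below the grey band, and the other 8 members lie within it.

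The other genes of speckles and splicing were taken from a list of 47, all of which were found and 46 of which averaged 10 CPM or more. Of these 46, 1 (2.17%) was lower in sonKD by 1.3-fold and 0 were higher, against 6.02% lower and 2.64% higher over all genes. The median log2 ratio of the list was -0.15, against -0.12 for all genes, with 39 genes (84.8%) below 0 and 7 above, where 74.9% of all genes were below 0. Lowest were Srsf6, a splicing factor of the SR family (211 and 158 CPM, log2 ratio -0.42), Clk2, a kinase of SR proteins (39.4 and 30.9 CPM, -0.35), and Ddx39b, a helicase of splicing and RNA export (190 and 152 CPM, -0.31). Highest were Snrnp70, a protein of the U1 snRNP (169 and 189 CPM, 0.16), Rbm39, a splicing factor (595 and 651 CPM, 0.13), and Clk4, a kinase of the same family as Clk2 (22.8 and 24.0 CPM), whose interval of -0.07 to 0.21 included 0. With TMM factors the median of the list was -0.06 and 0 of its genes were lower by the fold, against 2.90% of all genes. Among nuclear RNAs, Neat1, the scaffold RNA of paraspeckles, had 87.2 CPM in the control library against 224 CPM in the other, and Malat1, an RNA enriched in speckles, was at 2634 and 2192 CPM.

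Detection was compared after thinning each cell at random to 2500 UMIs, so that no cell was left out and depth was equal. Of control cells, 33.7% kept at least 1 Son UMI (exact binomial interval 32.4 to 35.02), and of sonKD cells 21.7% did (20.1 to 23.3). The shares differed by -12.01 points (-14.04 to -9.95). Without thinning the shares were 70.3% and 59.8%. For Thrap3 the share was 59.6% in control and 51.8% in sonKD, and for Sart1 it was 16.1% and 11.6%. Smaller differences that excluded 0 were found for Luc7l3 at -4.23 points (-6.51 to -1.94) and Bclaf1 at -2.88 points (-5.23 to -0.52). The difference in detection was not taken over all genes. By level, 41.8% of all genes had a lower ratio than Luc7l3 and 28.3% had a lower ratio than Bclaf1. Srrm1 was detected more often in sonKD, in 61.9% against 58.5% of cells. For Srrm2, Rnps1, Acin1 and Pnn the interval of the difference included 0, and Srrm2 was found in 82.5% and 82.1% of cells. No cell type that lacks these genes was present, so the level in free RNA is given with the droplet classes.

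The spread of Son over sonKD cells was wider than a Poisson distribution of the same mean. In thinned control cells, 66.3% held 0 Son UMIs, where a Poisson distribution of the same mean gives 65.8%. In sonKD cells 78.3% held 0 (76.7 to 79.9), where Poisson gives 77.1%, and 18.0% held 1 (16.6 to 19.5), where Poisson gives 20.1%. At the other end, 10 sonKD cells held 3 Son UMIs and 4 held 4 or more, or 0.147% (0.0399 to 0.375), where Poisson gives 0.0156%. The variance divided by the mean, which is 1 for Poisson counts, was 1.04 in control and 1.14 in sonKD. Of all genes, 63.9% had a lower value than Son in the control library, and 93.7% had one in sonKD. The other scaffold gene, Srrm2, was at 1.14 and 1.20 on this measure, above 94.1% and 96.2% of genes. The measure can rise with level, and the genes were not matched for level. Srrm2 averaged 1.83 and 1.92 UMIs per thinned cell in control and sonKD, against 0.418 and 0.260 for Son. With the variance beyond the mean divided by the squared mean, Srrm2 was at 0.074 and 0.102, and Pnn at 0.103 and 0.142. Son was at 0.090 and 0.525. Across all genes the median was 1.02 in each library, and the 10 members had medians of 1.04 and 1.06.

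**Figure D2:**
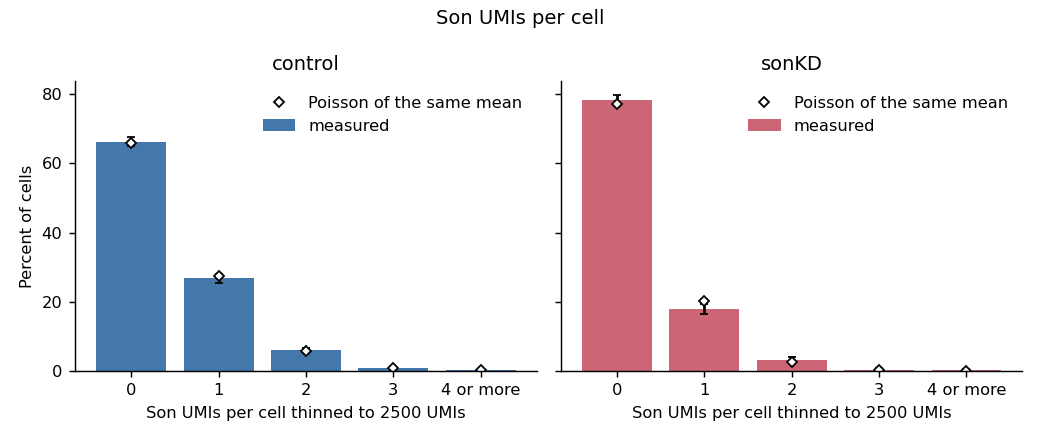
Percent of cells (vertical axis) with 0, 1, 2, 3 and 4 or more Son UMIs after thinning to 2500 UMIs, in control (left) and sonKD (right); bars are measured shares with exact binomial 95% intervals and diamonds are Poisson shares of the same mean. Cells with 0 Son UMIs are 66.3% in control and 78.3% in sonKD, and in sonKD the bar at 1 UMI (18.0%) lies under its diamond (20.1%).

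Cell cycle states were called from scores of 43 S phase and 54 G2/M genes, none of them a member. S held 2554 control and 1361 sonKD cells, and G2/M held 2248 and 1192. These are cuts of a continuous score, and between 35.0% and 38.1% of the cells in either state had S and G2/M scores within 0.1 of each other. In S, Son had 165 CPM in the control library and 103 CPM in the other, a log2 ratio of -0.68 (-0.77 to -0.59). In G2/M it was at 173 and 107 CPM, a ratio of -0.69 (-0.78 to -0.60), so the difference between the libraries was alike in both states. The same 2 members, Son and Sart1, were lower by 1.3-fold in S, where 6.72% of genes were, and in G2/M, where 8.18% were. Sart1 had a log2 ratio of -0.46 in each of the 2 states.

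Between S and G2/M the members differed little within a library, and 0 of 10 passed the fold in either direction. Over all genes, 1.99% were higher in G2/M than in S in control and 1.95% in sonKD, while 0.307% and 0.453% were lower. For 4 members the sign was the same in both libraries with intervals that excluded 0, as Srrm2 and Acin1 were higher in G2/M and Srrm1 and Bclaf1 higher in S. All of these differences were inside the fold. The same count by intervals was not taken over all genes, so it is not shown to be a trait of the members. Bclaf1 had 335 CPM in S and 306 CPM in G2/M in control, and 292 and 264 CPM in sonKD. Acin1 had log2 ratios of G2/M over S of 0.06 (0.003 to 0.12) in control and 0.13 (0.06 to 0.19) in sonKD. Srrm2 was at 734 CPM in S and 771 CPM in G2/M in control, and at 746 and 819 CPM in sonKD, log2 ratios of 0.07 (0.04 to 0.10) and 0.14 (0.10 to 0.17).

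The G1 state was small and shallow, with 176 control and 178 sonKD cells at a median of 4255.5 and 6804.5 UMIs. Its cells had 5.71% and 5.55% mt- UMIs, against 3.78% and 4.11% in S, and 73.3% and 79.2% of them had S and G2/M scores within 0.1 of each other. These cells form a range of the scores and not a separate group, and the part of depth and mt- UMIs in their levels was not tested. Son in G1 had 161 CPM in the control library and 123 CPM in the other, a log2 ratio of -0.39 (-0.72 to -0.06), an interval that overlaps those of S and G2/M. Son was the member past the fold between the libraries in G1, where 26.7% of all genes were lower. Sart1 was at 37.2 CPM in G1 against 73.0 CPM in S in control, and at 32.3 against 53.0 CPM in sonKD. By the fold of 1.3, Pnn and Sart1 were lower in G1 than in S in control, where 22.4% of all genes were, and Sart1 alone in sonKD, where 18.8% were.

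**Figure D3:**
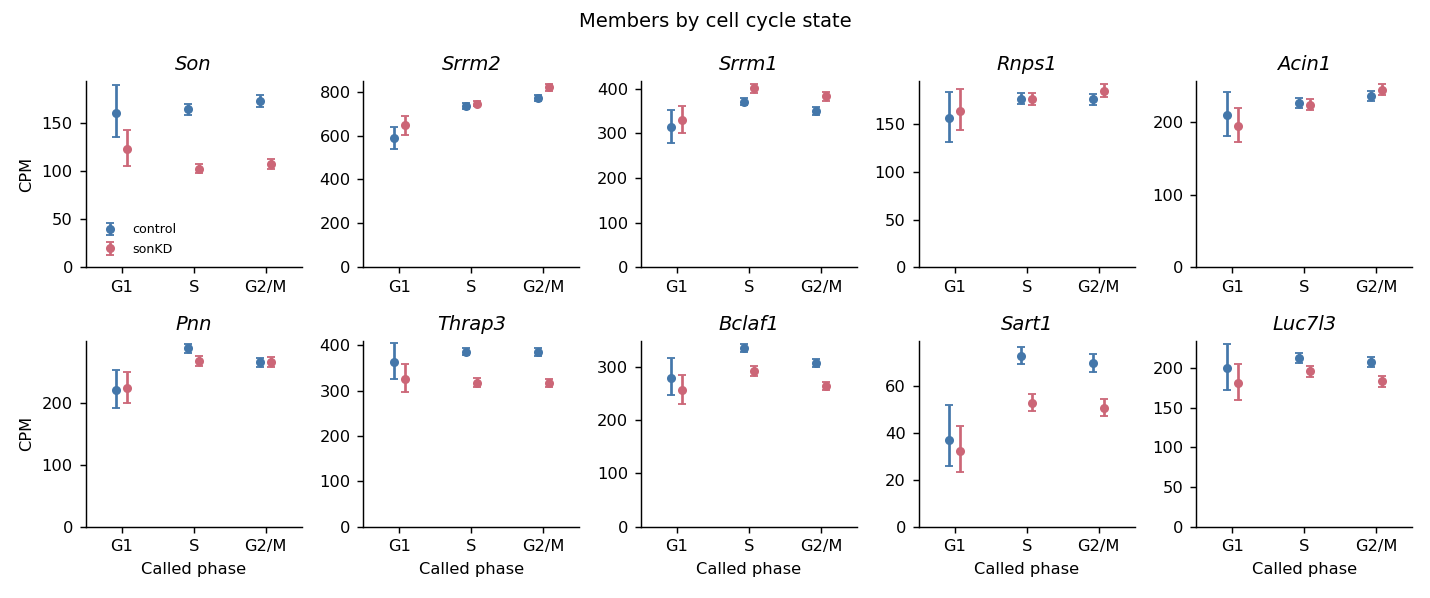
CPM of each member (vertical axis, from 0) in cells called G1, S and G2/M in control and sonKD; points are 1 library each and bars are 95% counting intervals. Son lies lower in sonKD in all 3 states, at 161 against 123 CPM in G1, 165 against 103 CPM in S and 173 against 107 CPM in G2/M.

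Because the libraries differed in depth, ratios were also taken within 3 ranges of depth. The libraries were not fully matched within a range. At 5000 to under 10000 UMIs, 3475 control cells had a median of 7486 UMIs and 3.78% mt- UMIs. The 675 sonKD cells there had 8396 UMIs and 4.90%. In cells of 5000 to under 10000 UMIs the Son log2 ratio was -0.60 (-0.72 to -0.47), and in cells of 10000 or more it was -0.74 (-0.82 to -0.66). In cells of 2500 to under 5000 UMIs, 514 in control and 172 in sonKD, it was -0.31, with an interval of -0.65 to 0.02 that included 0. Sart1 had -0.82 (-1.03 to -0.62) at 5000 to under 10000 UMIs, -0.49 (-0.61 to -0.37) at 10000 or more, and an interval from -0.68 to 0.52 in the shallowest cells. Thrap3 was lower in each stratum, from -0.36 to -0.23, with an interval that reached 0.002 in the shallowest. The median of all genes was 0.05 in the shallowest stratum, -0.16 in the middle and -0.17 in the deepest. By the fold of 1.3, 0 members were lower in the shallowest stratum, against 15.1% of all genes. Son and Sart1 were lower in the middle, against 17.6%, and in the deepest, against 14.1%.

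Droplets outside the cell limits were compared next, as they differ in how much mitochondrial and nuclear RNA they hold. High-mt barcodes met the UMI and gene limits with over 10% mt- UMIs (625 in control, 1056 in sonKD). Shallow barcodes held 500 to under 2500 UMIs and were split at the same 10% into high-mt (4519 and 2055) and low-mt (1281 and 999). Below them were 59880 and 62447 barcodes of 100 to under 500 UMIs, and near-empty droplets of under 100 UMIs. Only 1 control and 2 sonKD barcodes had the UMIs of a cell and under 1000 genes, and these were not compared. Malat1, a gauge of nuclear RNA, was at 13157 CPM in high-mt barcodes of control and 8960 CPM in those of sonKD, and at 1260 and 1019 CPM in the class of 100 to under 500 UMIs. That class held 0.981% and 0.961% mt- UMIs, the lowest of all classes.

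Son was higher in high-mt barcodes than in cells, in both libraries. It was at 302 CPM against 169 CPM in control, or 1.79-fold (1.65 to 1.95), and at 187 against 106 CPM in sonKD, or 1.77-fold (1.63 to 1.92). Many other genes differed the same way, and 39.7% of genes in control and 32.2% in sonKD were higher by 1.3-fold. Of the members, only Son passed that fold in control, and Son and Srrm2 did in sonKD, where Srrm2 was at 1041 CPM against 776. Of all genes, 89.3% in control and 92.1% in sonKD had a lower ratio than Son. The total includes mt- UMIs, and with mt- genes left out of it, 3 members passed the fold in control (Son, Srrm2 and Pnn), against 51.3% of genes, and 4 in sonKD (with Luc7l3 added), against 50.6%. With the split between cells and high-mt barcodes at 5% mt- UMIs, Srrm2 in sonKD was at 0.16, inside the fold. Bclaf1 had a lower level, with 320 CPM in cells and 270 CPM in high-mt barcodes of control, and 277 and 192 CPM in sonKD. By 1.3-fold, 0 members were lower in high-mt barcodes than in cells in control, against 19.6% of genes, and Bclaf1 alone was in sonKD, against 17.5%. With mt- genes left out, its log2 ratio was -0.06 in control and -0.31 in sonKD, inside the fold in both. In shallow high-mt barcodes Son had 285 CPM in the control library and 178 CPM in the other, 1.69-fold and 1.68-fold of the level in cells, while Bclaf1 and Sart1 were lower by at least 1.3-fold in both libraries. With mt- genes left out, Sart1 in control was at -0.31, inside the fold, and the other 3 values stayed past it. In shallow low-mt barcodes the libraries differed, as Son was at 1.44-fold of the level in cells in control (1.29 to 1.61) and at 1.04-fold in sonKD (0.844 to 1.27). There 15.2% of genes were higher by 1.3-fold and 16.1% lower in control, and 20.8% higher and 19.2% lower in sonKD. Thrap3, Bclaf1 and Sart1 were lower by that fold in both libraries, and Rnps1 was in sonKD. The background for shallow high-mt barcodes was 27.5% of genes higher and 23.6% lower in control, and 27.9% higher and 27.6% lower in sonKD. All 10 members were lower by 1.3-fold in barcodes of 100 to under 500 UMIs than in cells, as were 65.5% of genes in control and 67.3% in sonKD. In near-empty droplets 7 of 10 were lower than in cells by that fold in control, against 43.9%, and 9 of 10 in sonKD, against 50.1%. With mt- genes left out, 6 and 7 were, against 34.4% and 41.2% of genes.

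The ratio of Son between the libraries was near that of cells in high-mt, shallow high-mt and near-empty droplets, and lower in the other 2 classes. The log2 ratio of sonKD over control was -0.69 (-0.85 to -0.53) in high-mt and -0.68 (-0.81 to -0.55) in shallow high-mt barcodes, beside -0.67 in cells. In shallow low-mt barcodes it was -1.15 (-1.48 to -0.82), from 243 to 110 CPM. In barcodes of 100 to under 500 UMIs it was -1.47 (-1.62 to -1.32), from 77.1 to 27.9 CPM, so that this class of sonKD held 36.2% of the control level (32.6 to 40.01). The intervals of shallow low-mt barcodes and of this class did not overlap that of cells. In near-empty droplets Son was at 116 and 71.5 CPM, a ratio of -0.69 (-1.03 to -0.36). With 1 library per group, a test of these differences between classes was not possible.

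Over all members, the class of 100 to under 500 UMIs had the most ratios between the libraries past the fold. There 5 of 10 were lower in sonKD, against 23.8% of all genes. Son, the siRNA target, is among those counted in each class. They were Son, Sart1 at -0.68, Thrap3 at -0.60, Bclaf1 at -0.53 and Luc7l3 at -0.44, and the median of all genes was -0.19. Srrm1 had 166 CPM in both libraries there, and Srrm2 had 308 and 290.5 CPM. In near-empty droplets 4 of 10 were lower, against 30.0% of all genes, and Sart1 had the lowest ratio at -1.09 (-1.54 to -0.65), from 81.3 to 38.2 CPM. In high-mt barcodes 3 of 10 were lower, against 23.6%, namely Son, Bclaf1 at -0.49 and Sart1 at -0.41, and Srrm1 was higher at 0.33 (0.19 to 0.46). With mt- genes left out, Sart1 there was at -0.36, inside the fold. Son and Sart1 were the 2 members past the fold in shallow high-mt barcodes, against 17.9% of genes, and Son, Sart1 and Luc7l3 were the 3 in shallow low-mt barcodes, against 22.7%. The Sart1 ratio was below 0 in each class, from -0.41 to -1.09. The levels of free RNA bear on every share of cells with a UMI given above, and their part in those shares was not tested.

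**Figure D4:**
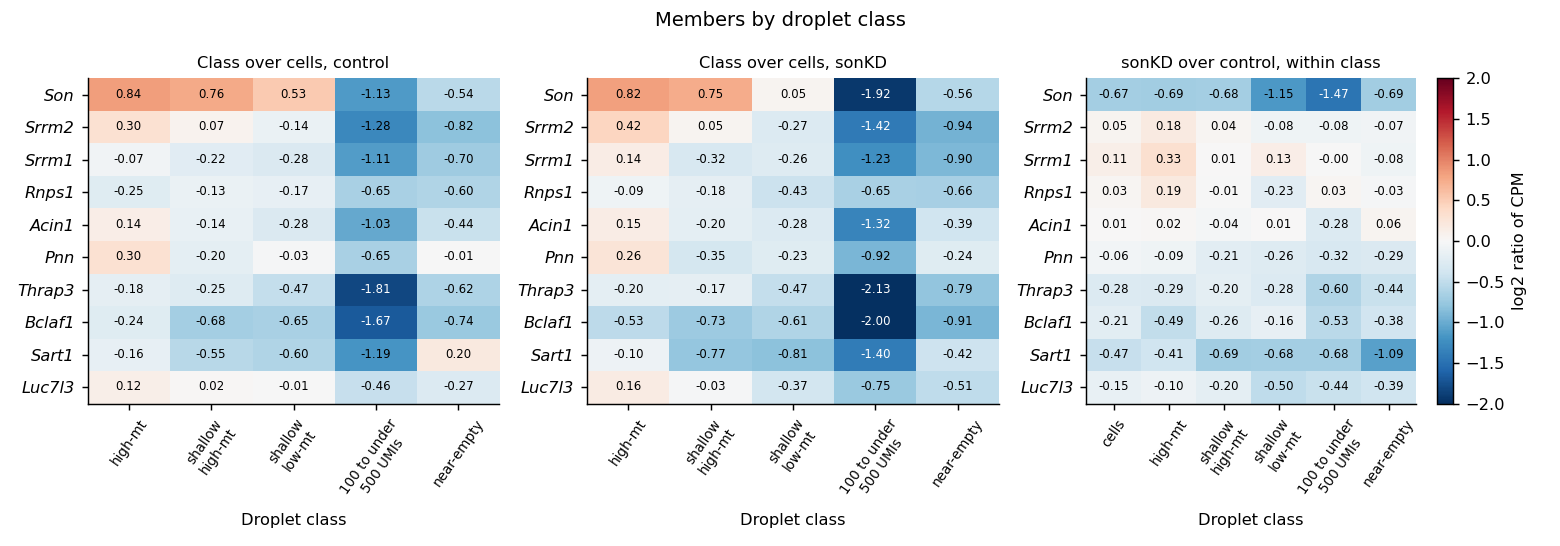
Log2 ratios of CPM for the 10 members (rows) over droplet classes (columns), as class over cells in control (left) and in sonKD (middle) and as sonKD over control within each class (right); each number is from 1 library per group. Son is higher in high-mt barcodes than in cells (0.84 and 0.82), and its ratio between the libraries is lowest in barcodes of 100 to under 500 UMIs (-1.47).

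Within cells, Son was higher where Malat1 was higher. Cells were split at the quartiles of Malat1 UMIs after thinning (2, 4 and 8 UMIs over both libraries), a split chosen after the droplet classes had been seen. In control, Son was at 136 CPM in the lowest stratum, 164 in the lower middle, 173 in the upper middle and 201 in the highest. In sonKD it was at 86.0, 102, 112 and 136 CPM. The log2 ratio between the libraries was -0.66, -0.69, -0.63 and -0.57 in the same order, with overlapping intervals. Srrm2 had 659 CPM in the lowest and 844 CPM in the highest stratum of control, and 725.5 and 841 CPM in sonKD. Thrap3 had 334 and 437 CPM in control, and 271 and 366 CPM in sonKD. Sart1 went from 56.7 to 80.2 CPM in control and from 45.25 to 59.9 CPM in sonKD. Acin1, Pnn and Bclaf1 were also higher in the highest than in the lowest stratum of both libraries. Srrm1 (340 and 354 CPM) and Luc7l3 (197 and 218 CPM) were higher there in control. In sonKD both were lower there, at 396 and 387 CPM and at 194 and 187 CPM. Rnps1 lay between 175 and 177 CPM in control and between 165.5 and 185 CPM in sonKD. The same comparison between strata was not made over all genes. Son alone was lower between the libraries by 1.3-fold in the lowest stratum, against 8.64% of genes, and 2 members were in the lower middle, upper middle and highest strata, Son and Sart1, against 8.32%, 8.36% and 8.22%. The share of mt- UMIs was 3.61% in the lowest and 4.09% in the highest stratum of control, and 4.04% and 4.47% in sonKD.

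**Figure D5:**
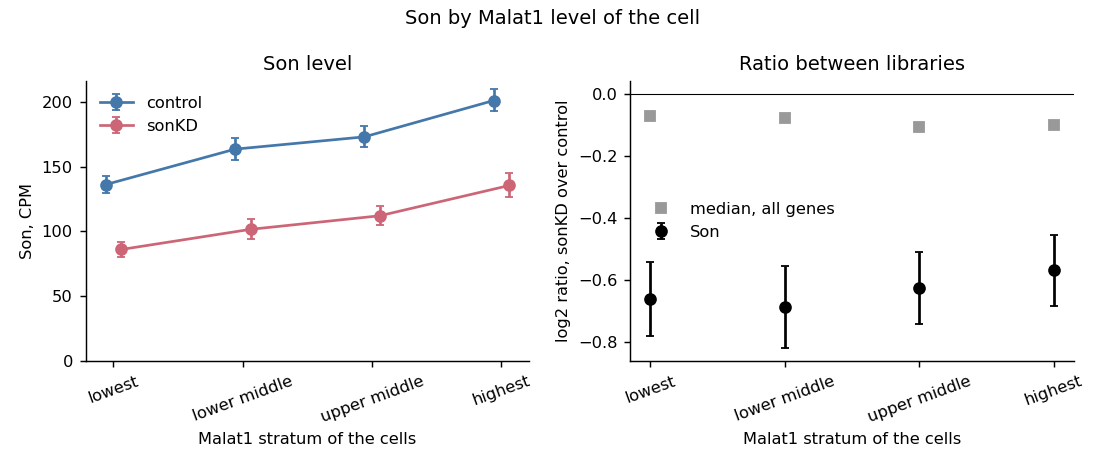
Left, Son level in CPM (from 0) in cells of the 4 Malat1 strata in control and sonKD; right, log2 ratio of sonKD over control for Son and the median of all genes in each stratum. Bars are 95% counting intervals; Son goes from 136 to 201 CPM in control and from 86.0 to 136 CPM in sonKD, while its ratio stays between -0.69 and -0.57.

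Co-variation of the members over cells was weak. Over the 45 pairs, Pearson's r of log counts in thinned cells had a median of 0.015 in control, with a range of -0.014 to 0.056 over 4978 cells, and 0.013 in sonKD, with a range of -0.025 to 0.057 over 2731 cells. Over all pairs of the 8063 genes the medians were 0.00054 and 0.00031 and the 95th percentiles 0.029 and 0.036. Of the 45 pairs, 39 were above 0 in control and 33 in sonKD, where 51.4% and 50.6% of all pairs were. The 95th percentile of all pairs was passed by 12 of the 45 in control and 7 in sonKD. All pairs were not matched to the members for level. These values are descriptions from sparse counts of cells that share a library. The pairs with the highest r were Srrm2 with Acin1 in control (0.056, and 0.045 in sonKD) and Srrm2 with Pnn in sonKD (0.057, and 0.047 in control).

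For the scaffold pair, Son with Srrm2, r was 0.041 in control, above the 95th percentile of all pairs there (0.029). In sonKD it was -0.025, the lowest of the 45 pairs and within the 5th to 95th percentile of all pairs (-0.032 to 0.036). Control cells with 2 or more Son UMIs had Srrm2 at 787 CPM, against 715 CPM in those with 0, a log2 ratio of 0.14 (0.02 to 0.25). In sonKD the values were 737 and 774 CPM, a log2 ratio of -0.07 (-0.29 to 0.14), and the intervals of the 2 ratios overlapped. The gene whose counts were most like those of Son over control cells was Malat1, at an r of 0.096, and it ranked at 2 of 8053 genes in sonKD with 0.092. Next in control were Esrrb (0.069), Lin52 (0.068), Ccdc88c (0.066) and mt-Co2 (0.065), which had an r between 0.011 and 0.035 in sonKD and ranked at 666 or lower. For Srrm2, Malat1 was at rank 1 in both libraries, with 0.13 and 0.11, followed in control by mt-Nd2, mt-Nd1, Ranbp17 and Cenpf at 0.084 to 0.065. These ranks were not matched for level, and Malat1 was at 2634 CPM in control cells. Over the members besides Son and Srrm2, r with Malat1 went from -0.011 for Srrm1 to 0.081 for Thrap3 in control. In sonKD it went from -0.004 for Rnps1 to 0.101 for Thrap3. Each member had a negative r with the summed UMIs of ribosomal protein genes in both libraries, from -0.025 to -0.16 in control and from -0.013 to -0.17 in sonKD. The same r was not taken over all genes, and thinned cells share a fixed total. These signs are therefore not shown to be a trait of the members.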

How the data were processed

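The deposited values are raw UMI counts for each barcode, made by the authors with Cell Ranger 7.1.0 per the file headers. The submitters' processing notes name the build mm10. The annotation, the strand setting and whether intronic reads were counted are not given in the sources used here. Positions are from GENCODE M21 (GRCm38), and start windows are from RefSeq, where 9 of 10 members had one. In each member, 0% of the 50-base words in the last 500 bases of the longest coding transcript occurred in another gene.

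Counts were summed over cells and scaled to CPM. Intervals are 95%, exact Poisson for levels, exact conditional binomial for ratios and Clopper-Pearson for shares. The interval of a difference of shares joins both bounds as a root sum of squares. A count of 0 would be set against a limit of 3 counts. Genes that averaged 10 CPM or more entered the comparisons across all genes. Phases came from scanpy 1.11.5, TMM factors from edgeR 4.0.16. Scrublet called 3 control and 1 sonKD barcodes, too few for a working call, so doublets were kept. An alternative removed 198 and 60 barcodes by rate (0.8% per 1000 cells). Cells of the libraries shared 2 barcodes. The code was tested on simulated data.

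The members and lists were chosen with earlier results of these data known. Named besides the members are the 3 highest and 3 lowest genes of the list, Gart, Donson, Malat1, Neat1, and the 5 genes most like Son and Srrm2. Protein composition was planned and is not analysed here.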

Additional observations from a re-analysis of the deposited data

How the results depend on the processing

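No paired analysis was possible because each group held 1 library and no test was made. Of 570 values under alternatives for 238 results, 471 stayed within the main interval or the limit for a count, 84 moved and 15 reversed. Scaling moved most of the member ratios, since another total shifts all genes alike. The Son log2 ratio was -0.583 with TMM factors, -0.557 with the median of ratios and -0.602 without mt- and ribosomal protein genes, and it was between -0.682 and -0.652 under the other 5 alternatives. The Pnn ratio reversed under the same 3 scalings, to 0.0341, 0.0600 and 0.0148, and the median of all genes reversed to 0.000166 with the median of ratios, by construction. Members lower by the fold were 1 with TMM factors, 1 with the median of ratios and 1 at a fold of 1.5. The list of other speckle and splicing genes had 0 lower under each of the 3 scalings, against 2.90%, 2.47% and 3.67% of all genes, with medians of -0.0595, -0.0337 and -0.0760. Without a filter on level, 16.9% of 20328 genes were lower and 13.0% higher, and at a mean of 50 CPM 3.90% of 3204 were lower and 4.15% higher.

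Thinning to 4000 UMIs, which left out 268 control and 109 sonKD cells, gave a Son detection difference of -16.8 points, as a share of cells depends on depth. With phases called in each library alone, the Son ratio of G2/M over S in control was -0.000511, against 0.0721 with joint calls. With droplets split at 5% mt- UMIs, high-mt over cells in control reversed for Pnn to -0.0212 and for Thrap3 to 0.0439, and was 0.400 for Son (0.468 in sonKD). The cause was not tested. With mt- genes left out of the total, a setting chosen after the classes were seen, the Son ratio of high-mt over cells was 1.02 in control and 1.05 in sonKD, beside medians of all genes of 0.40 and 0.39. Under that setting the ratio of high-mt over cells in sonKD reversed for Thrap3 to 0.0260. For shallow high-mt over cells it reversed in control for Srrm1 (0.0141), Rnps1 (0.106), Acin1 (0.0947) and Pnn (0.0395), and in sonKD for Rnps1 (0.135), Acin1 (0.115) and Thrap3 (0.136). Depth limits what can be said of Sart1, with 1637 UMIs in sonKD cells, and of the G1 state, where its counts were 34 and 45 UMIs.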
